A study of Mus musculus with 6 samples.

Results

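The subject was gene expression along mouse chromosome 10, compared between 2 related keratinocyte lines. The members were the protein_coding genes of that chromosome (GENCODE M21, GRCm38) with a level of at least 1 CPM (a gene's count scaled to the library's total count) in at least 3 of the 6 libraries. Of 989 protein_coding genes counted there, 522 passed, 247 had counts but did not pass and 220 had 0 counts in all 6 libraries. The members came from 1822 genes counted on the chromosome and 49315 in all, and 10220 genes of the other 18 autosomes passed the same rule. They were placed by gene start in 10 Mb windows, of which 13 held members.

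MK-546, a line of immortalized mouse keratinocytes without the α3 integrin subunit, formed the Control group. MK-546-ha3A, in which human α3 had been put back into those MK-/- cells, formed the group 3A. Both had skin as their source and were untreated, and they grew on collagen-coated dishes in low calcium medium. Control 1 to 3 and 3A 1 to 3 denote the libraries, 3 for each line. Each group was a single line, so α3 and the descent of the line cannot be told apart, and no label says that the replicates were separate cultures, so the spread between them may be technical.

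The level of most transcripts follows the number of gene copies to some degree, so a gain or loss of a chromosome or of an arm in a cultured line moves many neighbouring genes a little in one direction. Regulation by a pathway moves chosen genes, wherever they lie. Mouse chromosomes have the centromere at one end, and positions on chromosome 10 are counted from there. It carries genes of the p53 and cell cycle machinery (Mdm2, Cdk4, Cdk1), the translation factor gene Eef2, the desmosomal membrane protein gene Perp and a group of ligands for an activating receptor of natural killer cells (H60c, Raet1e). Only RNA was measured here, so the number of copies of the DNA is not known from these data.

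Total counts ranged from 25634204 to 36245240 per library. The chromosome was chosen from the comparison of 3A with Control, so all values of that comparison below are a description, and no test of the chromosome is given. Mitochondrial transcripts took 4.19% and 4.73% of counts in Control 2 and Control 3 and between 1.17% and 1.59% in the other 4 libraries. Counts on Itga3, which reads from the human transgene may reach, were 33.9, 39.5 and 41.4 CPM in Control 1 to 3, against 82.1, 72.6 and 58.6 CPM in 3A 1 to 3. All 10 keratinocyte markers checked, among them Krt5 and Krt14, had at least 10 CPM in every library. The summed level of 6 fibroblast markers was at most 3.43 CPM, of 5 melanocyte markers 1.59 CPM and of 4 endothelial markers 0.966 CPM. The summed keratinocyte markers (Perp, itself a member, among them) ranged from 9435 to 12699 CPM in Control, and from 7836 to 9993 CPM in 3A. The 5 immune markers summed to between 35.5 and 58.9 CPM, nearly all of it Cd74, with the leukocyte gene Ptprc at or near 0.

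Chromosome 10 took a smaller share of the RNA in the cells with human α3. Its genes held 5.30%, 4.92% and 4.94% of all counts in Control 1 to 3, against 4.26%, 4.35% and 4.27% in 3A 1 to 3. The 3 libraries of 3A lay below all 3 of Control. Among autosomal members alone the share was 5.46% ± 0.108 (mean ± SD, n = 3) in Control and 4.54% ± 0.0461 in 3A. The median log2 ratio of mean CPM in 3A to mean CPM in Control was -0.17 over the 522 members and 0.07 over the 10220 genes of the other autosomes. The difference between these medians was -0.25, a median level 15.6% lower relative to the other autosomes, and the lowest of the 19 autosomes. Below, a log2 ratio is given relative to the median of the other autosomes unless another scale is named. On this scale 352 of the 522 members (67.4%) lay below 0. In each library, the member's level was also set against its mean over the 6 libraries, with 0.5 CPM added to both. The median of this log2 level on chromosome 10, less that of the other autosomes, was 0.17, 0.11 and 0.12 in Control 1 to 3, against -0.13, -0.14 and -0.09 in 3A 1 to 3.

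A trend on base composition crossed these libraries and bears on where along the chromosome the ratio was low. On the other autosomes the median log2 ratio, before centring, was 0.29 in the 10% of genes with the lowest GC content of the longest transcript and -0.24 in the 10% with the highest. The trend was removed by subtracting, from each gene, the median of the other autosomes' genes in the same of 20 GC bins. This correction was added after the data had been seen. It moved the chromosome's median log2 ratio from -0.25 to -0.27, a level 16.9% lower, with 363 of 522 members (69.5%) below 0. In each of 10 equal groups by GC content, the median of chromosome 10 was lower than that of the other autosomes, by between 0.17 and 0.38 on the log2 scale.

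The 6 libraries fell closer together within groups once the GC trend had been removed. The median log2 level of the chromosome was then 0.15, 0.12 and 0.13 in Control 1, 2 and 3 (mean 0.13 ± 0.0121, SD, n = 3) and -0.14, -0.14 and -0.13 in 3A 1 to 3 (mean -0.14 ± 0.0033). The gap between the lowest Control and the highest 3A library was 0.26. On chromosome 3, which had the next lowest median ratio (-0.16), the gap was 0.06. The mitochondrial share was higher in Control 2 and Control 3 than in the other 4 libraries, and the summed keratinocyte markers were lower in 2 of the 3 libraries of 3A than in every Control library. The part of either in these values was not tested.

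**Figure D1:**
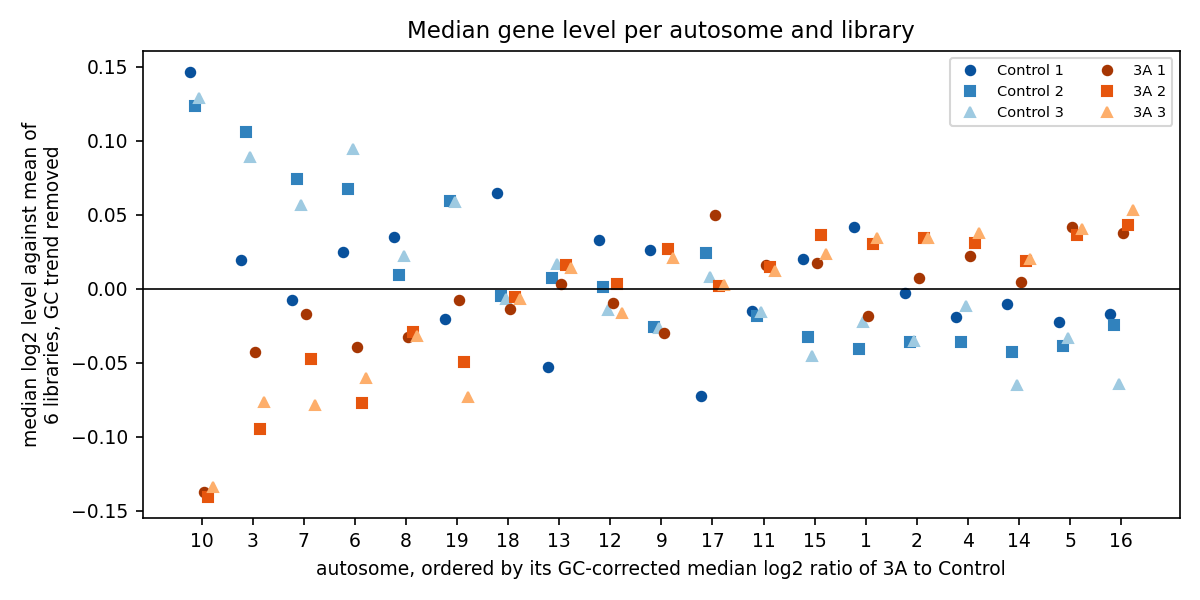
Median log2 level of the members of each autosome (vertical axis, against the mean of the 6 libraries, with the GC trend removed) in each library, for the 19 autosomes ordered by the median log2 ratio of 3A to Control. On chromosome 10, at the left, the 3 Control libraries sit between 0.12 and 0.15 and the 3 libraries of 3A between -0.14 and -0.13.

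Libraries of the same group were compared with each other as a measure that the choice of the chromosome did not use. With the GC trend removed, the median log2 ratio on chromosome 10 was -0.06 for Control 2 to Control 1, -0.10 for Control 3 to Control 1 and -0.01 for Control 3 to Control 2. Among 3A libraries it was 0.03 (3A 2 to 3A 1), 0.04 (3A 3 to 3A 1) and -0.02 (3A 3 to 3A 2). The 9 pairs of a 3A library with a Control library gave values from -0.29 (3A 1 to Control 3) to -0.24 (3A 2 to Control 3). All 9 ratios across groups lay below all 6 within groups. The ratios across groups use the contrast by which the chromosome was chosen, so this order is a description. The sign of a ratio within a group depends on which library is put first. The pairs share libraries and are not independent of each other, so they carry no test.

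**Figure D2:**
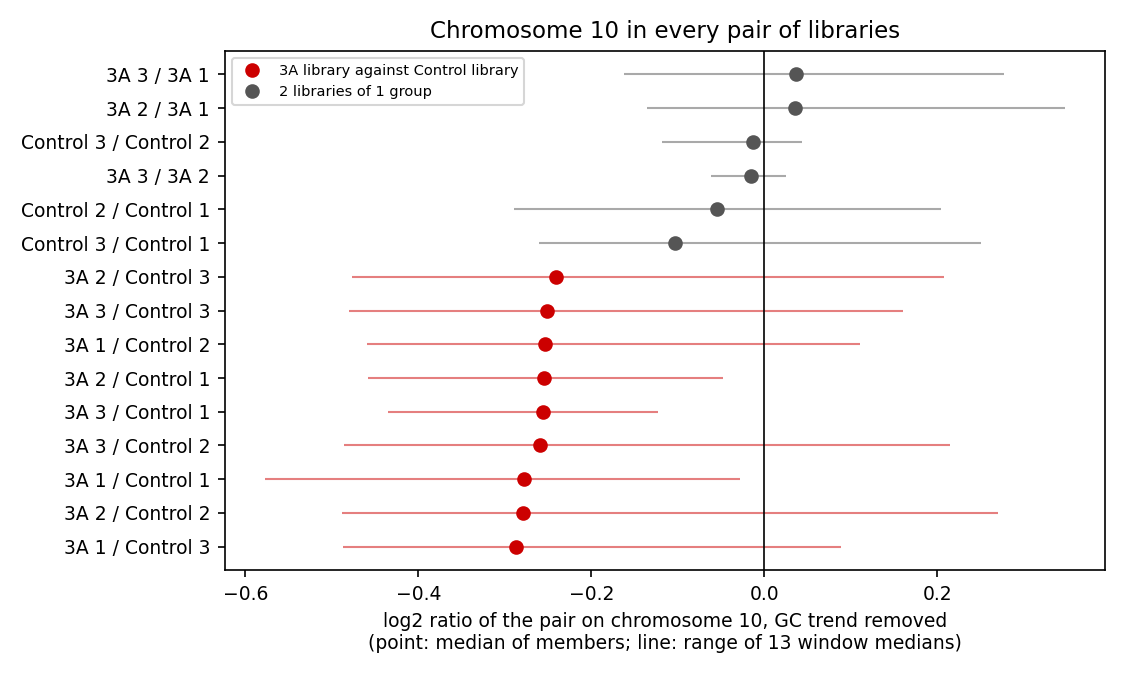
Log2 ratio on chromosome 10 for each of the 15 pairs of libraries, with the GC trend removed; points are medians over the 522 members and lines span the lowest to the highest of the 13 window medians. Points for pairs across groups lie between -0.29 and -0.24, and points for pairs within a group between -0.10 and 0.04.

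The lower level ran along nearly the whole chromosome. Before the GC correction, 11 of 13 windows had a median log2 ratio below 0, against 91 of 221 windows (41.2%) with at least 10 members on the other autosomes. With the GC trend removed, 12 of 13 windows were below 0, against 115 of 221 (52.0%) elsewhere. Of the 10 lowest windows among all 234, 7 were on chromosome 10, and 11 of its 13 windows lay below the value that 10% of the windows elsewhere fell under (-0.19). The 3 libraries of 3A lay below all 3 of Control in 10 of 13 windows, compared with 52 of 221 windows (23.5%) on the other autosomes, and above them in none of the 13. Before the GC correction, 4 of the 10 lowest windows were on chromosome 10. On that scale the 3A libraries lay below those of Control in 8 of 13 windows, against 36 of 221 (16.3%) elsewhere. Windows differ in their number of members, from 10 to 109, and share the 6 libraries.

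**Figure D3:**
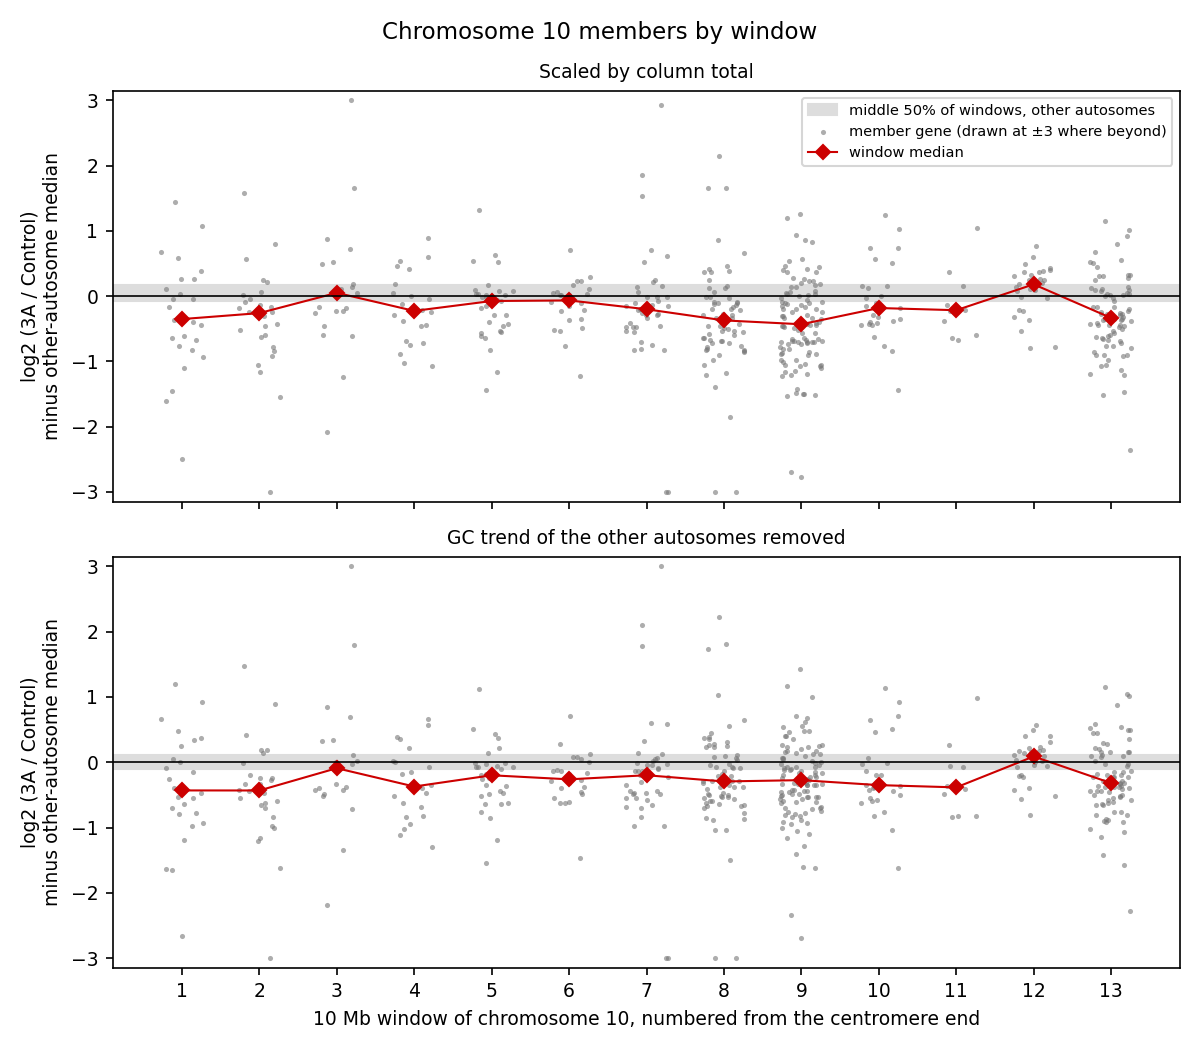
Log2 ratio of 3A to Control relative to the other autosomes (vertical axis) for each member (grey points) in the 13 windows of 10 Mb, scaled by column total (top) and with the GC trend removed (bottom); diamonds are window medians and the grey band is the middle 50% of windows of the other autosomes. In the lower panel 12 of 13 diamonds are below 0, and window 12 is at 0.09.

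With all 6 libraries, the 2 windows of 10 Mb nearest the centromere had the lowest median ratios after the GC correction. From 0 to 10 Mb (26 members) the median log2 level with the GC trend removed was 0.28, 0.17 and 0.17 in Control 1 to 3, against -0.26, -0.19 and -0.17 in 3A 1 to 3. From 10 to 20 Mb (28 members) these medians were 0.26, 0.25 and 0.25 in the Control libraries, against -0.31, -0.16 and -0.23 in 3A. The 2 groups did not overlap in either window, and the median log2 ratio was -0.43 in both. Perp and the interferon γ receptor gene Ifngr1 lie in the second of them. For each library left out, the rule was applied again to the remaining libraries. Fewer members then passed, so the members changed along with the libraries. This ranking changed with a library left out and with window size. Without 3A 1 the 2 corrected ratios were -0.40 and -0.37. From 30 to 40, 90 to 100 and 100 to 110 Mb they were then -0.44, -0.43 and -0.41. In 5 Mb windows the corrected ratio was -0.77 from 0 to 5 Mb (9 members) and -0.15 from 5 to 10 Mb. It was -0.47 from 10 to 15 Mb and -0.24 from 15 to 20 Mb. The lowest was -0.82, from 35 to 40 Mb (9 members).

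In the middle of the chromosome several values changed when a library, and with it the members that then failed the rule, was left out. From 20 to 30 Mb (21 members) the GC-corrected median log2 ratio was -0.09 and the groups overlapped, with library medians of 0.14, -0.11 and 0.02 in Control 1 to 3, against -0.14, -0.04 and 0.05 in 3A 1 to 3. This value was -0.0041 without Control 1, -0.30 without Control 2, -0.25 without Control 3 and -0.20, -0.30 and -0.33 without 3A 1, 2 and 3. In smaller windows of 5 Mb its first part was low (13 members, log2 ratio -0.40) and its second part was not (8 members, 0.18). From 30 to 40 Mb and from 40 to 50 Mb the GC-corrected log2 ratio was -0.37 and -0.20, the latter -0.32 without Control 1 and -0.13 without Control 2. From 50 to 60 Mb (25 members) it was -0.26, with the groups overlapping, and -0.08 without Control 1 or -0.14 without 3A 1. The first library of each group stood furthest apart: the median log2 level was 0.34 in Control 1 and -0.25 in 3A 1, while the other libraries had -0.01 (Control 2), -0.04 (Control 3), -0.07 (3A 2) and 0.03 (3A 3). From 60 to 70 Mb the log2 ratio was -0.20, with the groups apart, and -0.10 without Control 1.

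The gene-dense stretch from 70 to 90 Mb was where the GC correction raised the ratio most. Its windows had a median GC content of 55.0% and 57.2%, against 49.8% over the members of the other autosomes. Scaled by column total alone they had the lowest medians of the chromosome, -0.37 (68 members) and -0.43 (109 members). With the GC trend removed these became -0.29 and -0.27, close to the median of the whole chromosome; the first was -0.18 without Control 1. In the window from 80 to 90 Mb the corrected library medians were 0.14, 0.16 and 0.17 in Control 1 to 3, against -0.15, -0.16 and -0.15 in 3A 1 to 3, a spread within each group that was small against the distance between the groups. Eef2, the kinase gene Map2k2 (MEK2) and the stress gene Gadd45b lie here. In the GC-poor windows from 90 to 100 Mb (29 members) and from 100 to 110 Mb (10 members), the correction went the other way, from -0.18 to -0.35 and from -0.22 to -0.38. These values too changed when a library was left out. The corrected ratio from 90 to 100 Mb was -0.47 without Control 1 and -0.25 without Control 3. From 100 to 110 Mb it was -0.42 and -0.29. By column total the groups overlapped from 90 to 100 Mb.

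**Figure D4:**
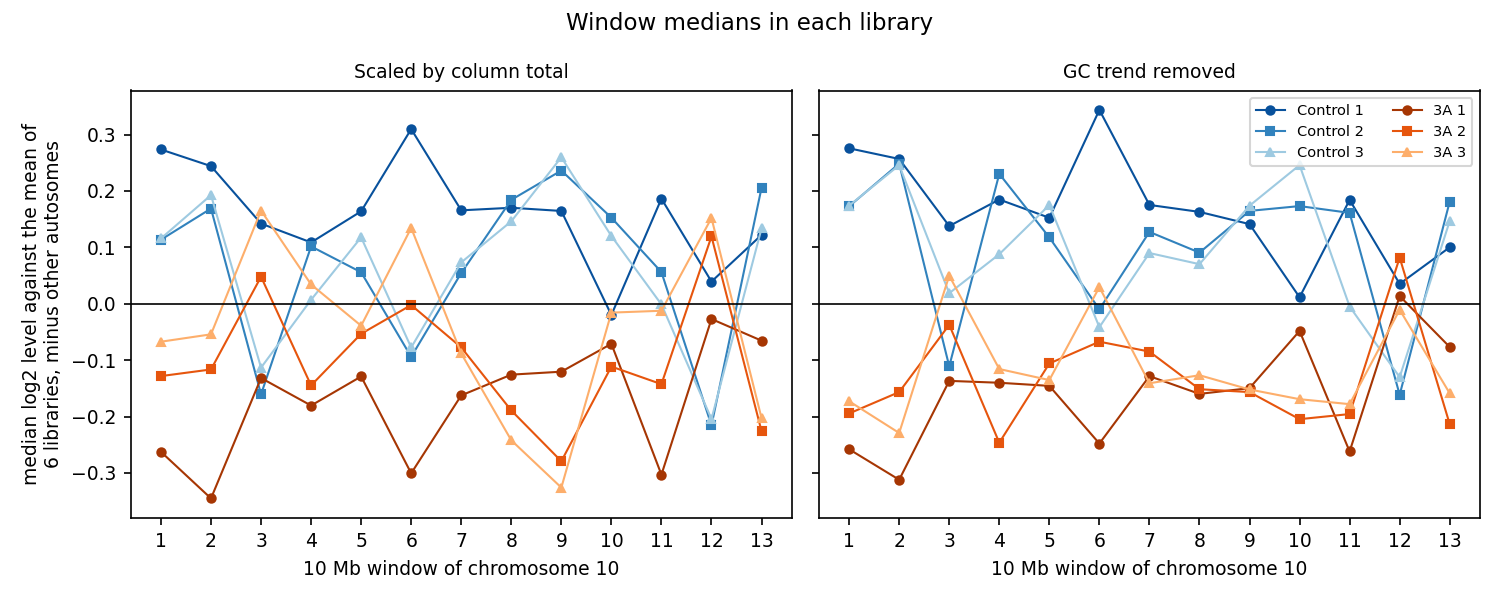
Median log2 level of the members of each 10 Mb window (vertical axis, against the mean of the 6 libraries and less the other autosomes) in each library, scaled by column total (left) and with the GC trend removed (right). On the right the Control lines (blue) lie above the 3A lines (orange) in 10 of 13 windows and cross them in windows 3, 6 and 12.

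The window from 110 to 120 Mb stood apart from the rest of the chromosome. The 29 members from 110 to 120 Mb had a median log2 ratio of 0.18 by column total and 0.09 with the GC trend removed. On the corrected scale 17 of 29 lay above 0. The corrected library medians were 0.04, -0.16 and -0.13 in Control 1 to 3, against 0.01, 0.08 and -0.01 in 3A 1 to 3, so the groups overlapped through Control 1. The corrected log2 ratio was 0.15 without Control 1, -0.04 without Control 2, -0.0028 without Control 3, and 0.12, 0.01 and 0.05 without 3A 1, 2 and 3. The p53 ubiquitin ligase gene Mdm2 had 273, 156 and 138 CPM in Control 1 to 3, against 232, 310 and 363 CPM in 3A 1 to 3, a corrected log2 ratio of 0.50. Neighbouring Rap1b, a small GTPase of integrin activation and here named after its value was seen, had 346, 192 and 165 CPM in the Control libraries, against 312, 454 and 491 CPM in 3A. Neither gene passed the test across all genes (edgeR adjusted p = 0.141 and adjusted p = 0.0979). Both have Control 1 within the range of 3A. In contrast, the chaperonin subunit gene Cct2 from the same window had 776, 858 and 834 CPM in the Control libraries, against 731, 628 and 664 CPM in 3A. From 120 to 130 Mb (82 members) the ratio was low again, at -0.32 after correction, with library medians of 0.10, 0.18 and 0.15 in the Control libraries, against -0.08, -0.21 and -0.16 in 3A.

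A running median over 25 neighbouring members was also taken along the chromosome. Neighbouring positions share most of their members and are not separate observations. By column total the running median was below 0 at 454 of 498 positions (91.2%). With the GC trend removed it was below 0 at 475 of 498 positions (95.4%). The 23 positions at or above 0 formed a single stretch, centred on members from Nav3 (start 109681259) to Mdm2 (start 117688875), where the running median reached 0.09. Below it, 398 positions in a row lay under 0, and above it 77. With a library left out fewer members passed the rule, which left 485 to 491 positions. The stretch changed with the library left out and with the correction. It was absent (0 positions) without Control 2 or without Control 3. Without 3A 2, without 3A 3, or with a trend on transcript length removed as well, 9 positions remained at or above 0, of which 6 in a row ran from Tbc1d15 to Cnot2. Without 3A 1 there were 27. Without Control 1, 78 positions in all were at or above 0, the longest run being 28, from Nav3 to Dyrk2.

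**Figure D5:**
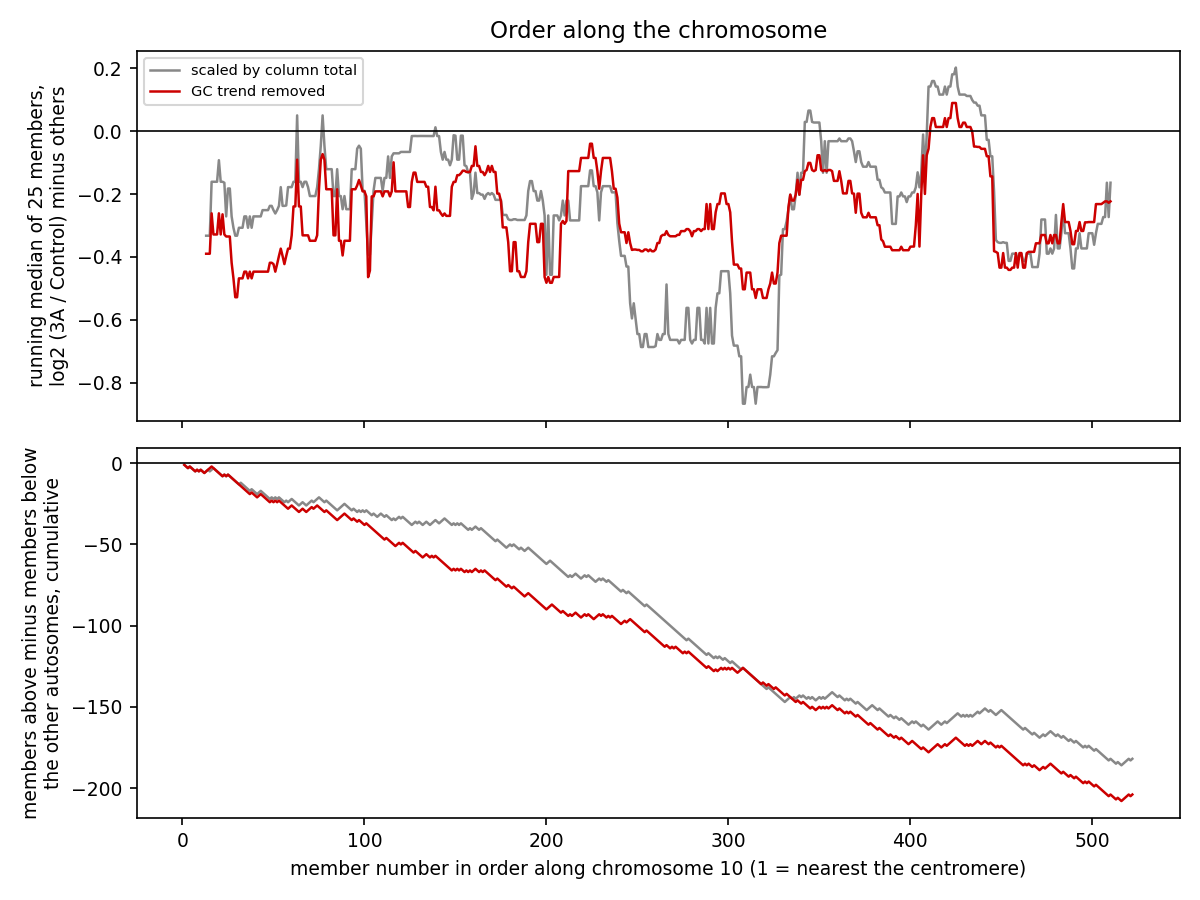
Top, running median over 25 members of the log2 ratio of 3A to Control relative to the other autosomes, against member number along the chromosome; bottom, the cumulative number of members above 0 minus those below. With the GC trend removed (red), 475 of 498 running medians are below 0 and the cumulative count ends at -204, with several short rises along the way.

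The shift was spread over the members rather than carried by a few. After the GC correction the lower quartile, median and upper quartile of the log2 ratio were -0.57, -0.27 and 0.09 on chromosome 10 and -0.36, 0 and 0.35 on the other autosomes, so that the quartiles lay 0.21 and 0.26 lower. Split by mean level over all 6 libraries, the corrected shift against other autosomal genes of the same level class was -0.21 for low levels (183 members), -0.29 for middle levels (158) and -0.30 for high levels (181). Split by transcript length it was -0.28, -0.22 and -0.28 from short to long. The median transcript length (3443 and 3428 bases) and level (37.2 and 36.5 CPM) were near those of the other autosomes. Of the members, 487 had at least 1 CPM in all 6 libraries, while 11 reached it in all 3 Control libraries and no 3A library, and 6 the reverse. These 11 and 6 passed the rule through 1 group alone. No such counts are given for the other autosomes, so nothing is read from them. At the edge of the rule, Tspyl4 and Avil were just inside, where 3 libraries reached at least 1.01 CPM, with log2 ratios of 0.60 and -2.36. Plagl1 and Itga7 were just outside, where 3 libraries reached at least 0.995 and 0.910 CPM, with log2 ratios of 0.43 and 0.62.

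Single genes were tested in a fit across all 13704 genes that passed edgeR's filter. Log2 fold changes, rises and falls of single genes below are from this fit, without the GC correction. Each SE given with them was derived from the test, as the absolute log2 fold change divided by the square root of the F statistic. In edgeR's quasi-likelihood test at a Benjamini-Hochberg adjusted p under 0.05, 18 of the 522 members were called higher in 3A, where 7.52% of all tested genes were called higher, and 81 were called lower, where 7.39% of all were. These shares use the contrast by which the chromosome was chosen. The groups did not overlap in CPM, with 3A lower, for 149 members (28.5%; 16.2% of all autosomal genes under the rule), and with 3A higher for 48 members (9.20%; 18.6%). After the GC correction 190 members had 3A lower without overlap (18.9% of all) and 51 had it higher (19.0% of all). The number of calls turned on single libraries. Leaving out Control 1 gave 103 members called higher and 190 lower, where 26.2% of all tested genes were called higher and 25.8% lower, so calls rose in number across the genome and not on this chromosome alone. Each of the other 5 leave-outs gave 4 to 12 members higher, where 2.46% to 4.54% of all genes were, and 17 to 50 lower, where 2.26% to 4.64% were. All 99 called members were also called without Control 1, and 20 of them were called whichever library was left out. No such counts are given for all called genes, so these cannot be read as particular to chromosome 10.

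Members called lower by edgeR lay in all windows but the 2 from 100 to 120 Mb, where 1 and 3 members were lower without overlap in CPM but not called, and the strongest reached well beyond the shift of the chromosome. H2afy2, the gene of a macroH2A histone variant, had 14, 17.1 and 19.2 CPM in Control 1 to 3, against 0.761, 0.303 and 0.340 CPM in 3A 1 to 3 (log2 fold change -5.24 with SE 0.40, edgeR adjusted p = 0.000577). It lies at 61738665 to 61784147 on the minus strand. H2afy2 passed the rule for members through Control alone, so nothing is read from the distance between its groups. Its call held without each library in turn. The killer cell receptor ligand gene H60c (3256208 to 3267771) had 47.4, 29.5 and 27.5 CPM in the Control libraries, against 3.42, 8.19 and 7.78 CPM in 3A (log2 fold change -2.48, edgeR adjusted p = 0.0054). Its relative Raet1e (22158569 to 22374139) had 7.55, 9.35 and 8.86 CPM in the Control libraries, against 1.90, 2.54 and 1.93 CPM in 3A (-2.10, edgeR adjusted p = 0.00207). Both kept their calls without each library; reads of such related ligand genes may be divided between copies. The ion channel gene Hcn2 and the BTB domain gene Btbd2, with starts at 79716634 and 80642617, fell by 1.86 and 1.54 on the log2 scale with calls that held likewise. With replicate number added to the edgeR fit as a block, H2afy2, Raet1e and Hcn2 kept an adjusted p under 0.05. In that fit the calls of H60c (edgeR adjusted p = 0.069) and Btbd2 (0.072) were lost.

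Genes of epidermal and signalling function that fell did so by unequal amounts. The stress genes Gadd45b and Ddit3 (CHOP, a factor of the unfolded protein response) fell by 1.52 and 1.48 on the log2 scale, about as far as Btbd2. With the GC trend removed the log2 ratio was -1.28 for Gadd45b, -1.57 for Ddit3 and -1.17 for Btbd2. Ddit3 had 129, 184 and 191 CPM in Control 1 to 3, against 73.0, 55.7 and 63.2 CPM in 3A 1 to 3. Perp, needed for desmosomes, had 875, 1043 and 982 CPM in Control 1 to 3, against 563, 596 and 623 CPM in 3A 1 to 3 (log2 fold change -0.78 with SE 0.17, edgeR adjusted p = 0.0247). Ifngr1 had 37.7, 44.2 and 39.0 CPM in the Control libraries, against 21.2, 22.4 and 23.9 CPM in 3A (-0.92, edgeR adjusted p = 0.0108). Both genes had all 3 libraries of 3A below those of Control. Bsg (basigin, a membrane glycoprotein), Map2k2 and the antiproliferative gene Btg1 fell by 0.60, 0.91 and 0.86 on the log2 scale, and the interferon signalling factor gene Stat2 fell by 0.53. Their log2 ratios with the GC trend removed were -0.38 for Bsg, -0.53 for Map2k2, -1.04 for Btg1 and -0.56 for Stat2. The calls of these 6 genes, from Perp to Stat2, and those of Gadd45b and Ddit3 were lost when some library other than Control 1 was left out, with edgeR adjusted p up to 0.208, and with offsets for GC content those of Bsg (edgeR adjusted p = 0.0958) and Gadd45b (0.0569) were lost too.

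A smaller number of members rose against the direction of the chromosome. Adamts14, which encodes a procollagen-processing protease, had 1.82, 0.712 and 1.01 CPM in Control 1 to 3, against 6.23, 11.3 and 10.8 CPM in 3A 1 to 3 (log2 fold change 2.94 with SE 0.38, edgeR adjusted p = 0.00385). That call held without each library but was lost with the replicate block (edgeR adjusted p = 0.0615). The matricellular protein gene Ccn2 had 23.3, 24.8 and 20.5 CPM in the Control libraries, against 52.9, 30.9 and 49.2 CPM in 3A (0.88, edgeR adjusted p = 0.0446). Dusp6, a phosphatase of ERK, had 53.7, 55.5 and 57.1 CPM in the Control libraries, against 108, 92.0 and 90.5 CPM in 3A (0.73, edgeR adjusted p = 0.0228). For all 3 genes every 3A library lay above every Control library. The transcriptional coregulator gene Cited2 and the cytokine signalling inhibitor gene Socs2 rose by 0.81 and 1.24 on the log2 scale. The calls of Ccn2, Dusp6, Cited2 and Socs2 were lost when some library other than Control 1 was left out. With offsets for GC content Ccn2 had an edgeR adjusted p = 0.0517.

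The lists of chromosome 10 genes, grouped by role, were short and were written with earlier results of these data known. Differences between them are therefore not read as results about the lists. Of 20 housekeeping genes on the list, all were members, 15 had a corrected log2 ratio below 0 (median -0.22) and 0 were called in either direction by edgeR. At an unadjusted p under 0.05 in the same test, which 15.8% of all genes reached as higher and 18.1% as lower, 1 was higher and 6 lower. DESeq2, which called 9.64% of all genes higher and 11.2% lower, called 1 higher and 5 lower. Eef2, which moves the ribosome along the mRNA, had 6036, 3958 and 3690 CPM in Control 1 to 3, against 3131, 3178 and 2873 CPM in 3A 1 to 3, without overlap (corrected log2 ratio -0.44, edgeR adjusted p = 0.0705). The citrate synthase gene Cs had 526, 423 and 406 CPM in the Control libraries, against 451, 427 and 392 CPM in 3A, overlapping, with a corrected log2 ratio of -0.23. Of 11 growth and cell cycle members, from 14 genes listed, 9 were below 0 (median -0.52; 0 called higher and 2, Map2k2 and Btg1, lower). In that list an unadjusted p under 0.05 in edgeR was reached by 2 higher and 4 lower, and DESeq2 called 1 higher and 3 lower. Of 13 stress and cytokine signalling members, from 14 genes listed, 8 were below 0 (median -0.19; Dusp6 called higher and Ifngr1, Gadd45b, Ddit3 and Stat2 lower). By unadjusted p 1 of these was higher and 5 lower, and DESeq2 called 1 higher and 4 lower. Of 20 names on the adhesion, matrix and membrane list 12 were members. Of these 4 were below 0 (median 0.18; Ccn2 and Itgb2 called higher and Perp and Bsg lower). Itgb2 had 0.438, 0.485 and 0.468 CPM in Control 1 to 3, against 1.55, 1.68 and 1.36 CPM in 3A 1 to 3. It passed the rule through 3A alone, so nothing is read from its rise. For the 12 members the unadjusted p gave 4 higher and 4 lower, and DESeq2 2 and 2. The counts below 0 stand beside 69.5% of all members. These medians stand beside -0.27 for all members and 7.52% and 7.39% called over all genes by edgeR's adjusted p.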

How the data were processed

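RNA from 6 libraries, 3 for each line, was measured by RNA-seq. The authors deposited raw read counts per gene in 1 table; per the submitters' processing notes these involved Trim Galore and featureCounts, and the notes also list limma, edgeR and 3 build names (hg38, GRCh38 and mm10). The aligner, strand setting and the role of the human builds were not given in the sources used here. Of 49315 gene IDs, 48970 matched GENCODE M21 and 345 did not; positions, types, transcript length and GC content came from it.

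CPM used column totals (25634204 to 36245240 counts, without normalization factors). Ratios were centred on the other autosomes. The GC trend was removed with 20 bins, a step added after seeing the data. Genes were tested with edgeR 4.0.16 (R 4.3.3; filterByExpr, TMM, quasi-likelihood fit, group as the only term, Benjamini-Hochberg over 13704 genes, threshold 0.05). Alternatives included DESeq2 1.42.0, other scalings, filters and windows, a replicate block, and each library left out. For ratios with a library left out, the rule for members was applied again to the remaining libraries. Shift recovery and the edgeR steps were tested on simulated data.

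The members, gene lists and the naming rule were chosen with earlier results of these data known. Named genes were, in each window, the member with the highest level, the called member (mean of at least 5 CPM) with the largest rise and largest fall, and members of the lists by role. Not all of them are described. No sequence is shown.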

Additional observations from a re-analysis of the deposited data

How the results depend on the processing

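The shift of chromosome 10 was negative under every alternative run; leaving out 1 library gave -0.27 to -0.22 by column total, and the lowest value was -0.29 (-0.2927, GC trend removed and 3A 1 left out). The share of windows below 0 was 76.9% to 100% against 84.6%. From 40 to 50 Mb the log2 ratio of summed mean CPM was 0.03971, against a median log2 ratio of -0.08. The window from 110 to 120 Mb was above 0 under 21 of 23 settings and that from 20 to 30 Mb under 6 of 23. The counts of called members depended most on the setting. With adjusted p under 0.01 in edgeR, 4 were higher and 23 lower (2.66% and 2.57% of all genes). DESeq2 called 28 higher and 115 lower (9.64% and 11.2% of all). Leaving out 1 library gave 4 to 103 higher and 17 to 190 lower, the highest counts without Control 1 (26.2% and 25.8% of all genes) and the lowest lower count without 3A 2 (2.26%) or 3A 3 (2.27%). Without Control 2 there were 8 and 24 (2.93% and 3.06% of all), without Control 3 9 and 29 (3.52% and 3.46%), and without 3A 1 12 and 50 (4.54% and 4.64%). With the replicate block 1 was higher and 7 lower (1.04% and 1.07% of all genes), and with the replicate block and offsets for GC content 1 and 8 (1.01% and 1.06%). Deviations of same-numbered libraries from their group means correlated across genes at -0.66, -0.42 and -0.37, and no library correlated best with its own number. Within a group of 3 these deviations sum to 0. The correlations therefore cannot show whether same-numbered samples were prepared together. Column totals left the median of all autosomal genes at 0.06 (log2), TMM at -0.0025 and RLE at 0.0092. The causes of these changes were not tested. With 3 libraries from 1 line in each group, the spread covers these samples only.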

Other observations

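Genes on chromosome 10 other than protein_coding ones gave a shift of their own. The 24 that passed the same rule had a median log2 ratio of -0.22 relative to 770 such genes on the other autosomes, and 16 of them were below 0. The 12 processed pseudogenes among them had 0.10, and their reads may come from parent genes elsewhere.

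Windows elsewhere in the genome set the scale of regional differences between the lines. After removal of the GC trend the highest windows of all 234 lay near the start of chromosome 8, at 0.69 from 0 to 10 Mb (25 genes) and 0.60 from 20 to 30 Mb (47 genes), with 0.37 between them (32 genes). The lowest window outside chromosome 10 was from 10 to 20 Mb of chromosome 18, at -0.37 (21 genes). These are descriptions of the same 6 libraries, with no test.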
